A study of Homo sapiens with 12 samples.

Results

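The SR and hnRNP genes are the SRSF and HNRNP rows of the gene table, taken by symbol (SRSF followed by a number, or a symbol that starts with HNRNP without a hyphen), with rows described as pseudogenes left out. The rule gave 37 genes of 50868 in the table, 12 SR genes and 25 hnRNP genes. Of these, 33 had enough reads to be tested among 16554 tested genes: all 12 SR genes and 21 hnRNP genes. The other 4 are HNRNPC-like copies on chromosome 1. HNRNPCL1 held 3 to 8 reads per library, HNRNPCL3 held 2 reads over the 12 libraries, and HNRNPCL2 and HNRNPCL4 held 0.

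The cells were RPMI2650, a human line of nasal septum tumour origin labelled as wild type nasal epithelium, grown at the air-liquid interface so that their upper side met air. Total RNA was sequenced in 12 libraries, 4 from control cells, 4 from cells given PFBA at 1 µM and 4 from cells given PFHxA at 1 µM. Exposure to either acid lasted 7 days. PFBA (perfluorobutanoic acid) and PFHxA (perfluorohexanoic acid) are fluorinated carboxylic acids that differ in the length of the carbon chain, the shorter being PFBA, and the study asked how chain length bears on the transcriptome. For the control libraries the labels give neither a vehicle nor a time in culture, so a difference in time cannot be told apart from the exposure in comparisons with control. In addition, no source used here ties a library to a culture, so p-values measure the spread between these libraries, which may be technical. Libraries are called a to d within each group, as in the table's columns.

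SR proteins carry an RNA recognition domain and a tail rich in arginine and serine. They bind enhancer sequences in exons, recruit the spliceosome and help to export and translate mRNA. The hnRNPs are abundant nuclear proteins that coat new transcripts; many bind silencer sequences in exons or introns and work against SR proteins, others stabilise mRNA or hold chromatin together. Several members of both families limit their own amount by splicing their pre-mRNA to a form that nonsense-mediated decay destroys, through exons known as poison exons.

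Each library held between 16941599 and 21879105 reads counted to genes. The epithelial keratins KRT8, KRT18 and KRT19 lay between 94.04 and 376 CPM (counts scaled to library size), EPCAM between 37.7 and 45.7 CPM, and CDH1, the E-cadherin of epithelial junctions, at 5.98 to 12.6 CPM. VIM, a mesenchymal filament, lay between 594 and 858 CPM, while DCN, PTPRC and HBB, which mark fibroblasts, leukocytes and erythroid cells, stayed at or under 0.246 CPM. The other fibroblast markers were not near 0, with COL1A1 at 1.82 to 2.81 CPM and PDGFRA at 0.875 to 3.08 CPM, and PECAM1 of endothelium lay at 0.109 to 0.816 CPM. Slopes on GC content and on transcript length were fitted to each gene's log2 CPM minus its mean over the 12 libraries. Their signs are relative to that mean. The PFHxA libraries stood apart from the other 8 in the slope on a gene's GC content, per 10 percentage points. It was 0.0797 ± 0.0133 in PFHxA (SD, n = 4; range 0.0674 to 0.0984), against −0.0340 ± 0.0224 in control (−0.0621 to −0.00849) and −0.0457 ± 0.0288 in PFBA (−0.0683 to −0.00360). The slope on transcript length, per doubling, was 0.00682 ± 0.00360 in PFHxA (0.00321 to 0.0103), above all control libraries at −0.0212 ± 0.0234 (−0.0552 to −0.00461) and within the range of PFBA at 0.0144 ± 0.0189 (−0.0113 to 0.0323). The mitochondrial share of reads was 10.9% ± 1.25 in control, 11.4% ± 0.239 in PFBA and 12.6% ± 0.575 in PFHxA. The tested members have transcripts with a median of 41.2% GC (range 35.3% to 56.3%) against 48.5% over 16452 tested genes with a reference transcript.

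Together the 37 genes took 0.857% ± 0.0126 of the reads in control, 0.866% ± 0.0154 in PFBA and 0.825% ± 0.0247 in PFHxA. Levels of different genes were compared as CPM per kilobase of the longest annotated transcript. On this scale the highest hnRNP genes in control were HNRNPK at 259 ± 11.2 (SD, n = 4), HNRNPA1 at 117 ± 13.97 and HNRNPF at 117 ± 1.89, and HNRNPUL1 at 116 ± 6.60 and HNRNPA2B1 at 114 ± 13.2 did not differ from the last 2 beyond their spread. HNRNPK binds runs of C in RNA and DNA, HNRNPA1 is the best-known splicing silencer of the family, and HNRNPF binds runs of G. The highest SR genes were SRSF9 at 129 ± 9.90, SRSF1 at 79.8 ± 3.51 and SRSF3 at 54.3 ± 2.02 CPM per kilobase. SRSF1 is the founding SR protein, first isolated as a splicing factor and as a switch between splice sites. The lowest tested member was SRSF12, a little-studied relative of SRSF10, at 5.11 ± 0.526.

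Part of this order depended on the length used. Divided by all annotated exons merged, from 1372 bases for HNRNPA1L2 to 22512 for HNRNPU, SRSF9 stood at 58.6 ± 4.51 and SRSF1 at 74.5 ± 3.28 CPM per kilobase in control, the reverse order. SRSF3 stood at 32.2 ± 1.2 on this scale, below SRSF6 at 46.8 ± 0.834. HNRNPK came first at 149 ± 6.42 and SRSF12 last at 4.04 ± 0.416 on this scale as well. HNRNPH2 and HNRNPH1, close paralogs, stood at 69.2 ± 3.05 and 17.6 ± 1.73 over merged exons and at 69.2 ± 3.06 and 29.9 ± 2.95 over the longest transcript.

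In PFHxA against control, HNRNPA0 was the member called higher both as counted and after removal of the GC and length trend. HNRNPH2 and SRSF3 had the smallest adjusted p among the members called lower. The promoters of these 3 members are printed for that reason. Each is the 250 bases before the RefSeq start (GRCh38.p14, on the gene's strand); capitals mark matches to the motifs searched on both strands, namely the GC box GGGCGG, the CCAAT box, the TATA box TATAAA and the ETS-type motif CCGGAAGT.
HNRNPA0, chr5:137754364-137754613, minus strand: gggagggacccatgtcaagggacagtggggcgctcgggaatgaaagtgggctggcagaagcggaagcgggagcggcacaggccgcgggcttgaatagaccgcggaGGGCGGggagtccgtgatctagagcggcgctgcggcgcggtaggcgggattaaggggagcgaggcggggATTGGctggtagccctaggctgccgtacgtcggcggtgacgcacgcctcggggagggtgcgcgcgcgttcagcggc
HNRNPH2, chrX:101407972-101408221, plus strand: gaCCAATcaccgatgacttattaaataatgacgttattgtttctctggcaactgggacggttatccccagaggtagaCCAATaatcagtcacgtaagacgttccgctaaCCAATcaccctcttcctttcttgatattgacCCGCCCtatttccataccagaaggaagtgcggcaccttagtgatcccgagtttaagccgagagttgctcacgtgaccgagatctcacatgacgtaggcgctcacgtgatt
SRSF3, chr6:36594112-36594361, plus strand: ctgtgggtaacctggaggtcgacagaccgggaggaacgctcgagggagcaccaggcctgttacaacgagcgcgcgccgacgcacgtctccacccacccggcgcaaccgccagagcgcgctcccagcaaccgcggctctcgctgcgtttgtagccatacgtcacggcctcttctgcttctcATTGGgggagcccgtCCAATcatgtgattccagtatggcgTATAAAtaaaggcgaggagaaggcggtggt
The windows held 70.4%, 47.6% and 62.4% G or C. HNRNPA0 had 1 GC box and 1 CCAAT box, HNRNPH2 had 1 GC box and 3 CCAAT boxes, and SRSF3 had 2 CCAAT boxes and 1 TATA box. RefSeq windows were found for 31 of the 33 tested members (45 windows). The GC box was in 27 of these windows and in 42.6% of all 35116 windows of this length, the CCAAT box in 21 of these and 32.0% of all, TATAAA in 13.3% and 10.7% and CCGGAAGT in 6.7% and 3.4%. The letters were matched alone, and a match only says that they are there.

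Exposure to PFBA left no SR or hnRNP gene past the test: 0 of 33 members were called at an edgeR adjusted p under 0.05, where 1 gene of 16554 was called in all (0.00604%). DESeq2 called 0 members (0.266% of all genes) and limma-voom called 0 members and 0 genes. At an unadjusted p under 0.05 edgeR gave 1 member of 33, against 9.86% of all genes. That member was HNRNPH2, at 163, 151, 147 and 154 CPM in the control libraries, 134, 144, 135 and 141 CPM in the PFBA libraries and 139, 125, 124 and 130.3 CPM in the PFHxA libraries. Every PFBA library lay below every control library, yet the difference did not pass (log2 fold −0.15, SE 0.047, edgeR adjusted p = 0.344). HNRNPA1L2, a copy of HNRNPA1, was the other member whose PFBA and control libraries did not overlap. Every PFBA library lay above every control library (log2 fold 0.088, SE 0.052, edgeR adjusted p = 0.607). Of all tested genes, 5.96% had groups that did not overlap in this comparison. The 95% intervals of 25 of the 33 members lay within ± 0.2 on the log2 scale and those of 30 lay within ± 0.3. The widest intervals belonged to SRSF4, at 0.019 (95% interval −0.41 to 0.45), and SRSF2, at 0.28 (95% interval −0.080 to 0.64).

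In PFHxA against control, 3 of 12 SR genes were called, all lower, and 7 of 21 hnRNP genes, 5 lower and 2 higher. The families were not tested against each other. The test called 10 of 33 members, 30.3%, where 14.9% of all tested genes were called. Of these, 8 were lower (8.82% of all genes were called lower): SRSF3, SRSF7, SRSF10, HNRNPA3, HNRNPDL, HNRNPH2, HNRNPLL and HNRNPR. The 2 called higher (6.08% of all genes) were HNRNPA0 and HNRNPUL1. DESeq2 and limma-voom called 11 members each, where they called 17% and 14.6% of all genes. All changes were small, from −0.26 to 0.17 on the log2 scale. Where PFHxA libraries are said below to lie apart from others, the share of all tested genes doing so is not given. Such separation therefore does not set these members apart from other genes. The fitted log2 fold was below 0 for 11 of 12 SR genes, with a median of −0.082, and for 12 of 21 hnRNP genes, with a median of −0.025. Over all tested genes the median was −0.0039 and 50.6% were below 0. The summed SR level was 1594 ± 14.6 CPM in control (range 1578 to 1612.9), 1594.2 ± 30.4 in PFBA (1560.1 to 1632) and 1479.6 ± 26.4 in PFHxA (1455 to 1517). All PFHxA libraries lay below the other 8. The summed hnRNP level overlapped between all groups, at 6968 ± 186, 7034 ± 157 and 6834 ± 185 CPM. In bulk RNA, fewer cells that express a gene and less RNA per cell cannot be told apart.

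These counts moved with GC content. The 8 members called lower had a median of 39.6% GC. SR genes lay between 36.6% and 45.6% GC, while hnRNP genes reached 56.3%. Of all genes with 35% to 40% GC, 0.18% were called higher, and 1.3% of those between 40% and 45%. Among all genes with 35% to 40% GC, 31.2% were called lower, and 5 of the 13 members in that band were; between 40% and 45% GC the figures were 13.5% of genes and 3 of 12 members. When the trend of each library on GC content and transcript length was removed before the test, 1 of 33 members was called (2.62% of all genes), HNRNPA0, and the median log2 fold of the members turned from −0.044 to 0.030. The calls of the other 9 members rested on counts from which that trend had not been taken out. Whether the trend arose in the cells or in the libraries cannot be told apart here, since it separates the groups. With the trend removed, the SR median turned to 0.054, with 3 of 12 SR genes fitted below 0. The hnRNP median turned to 0.014, with 7 of 21 below 0. The summed SR and hnRNP levels given above are as counted.

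**Figure D1:**
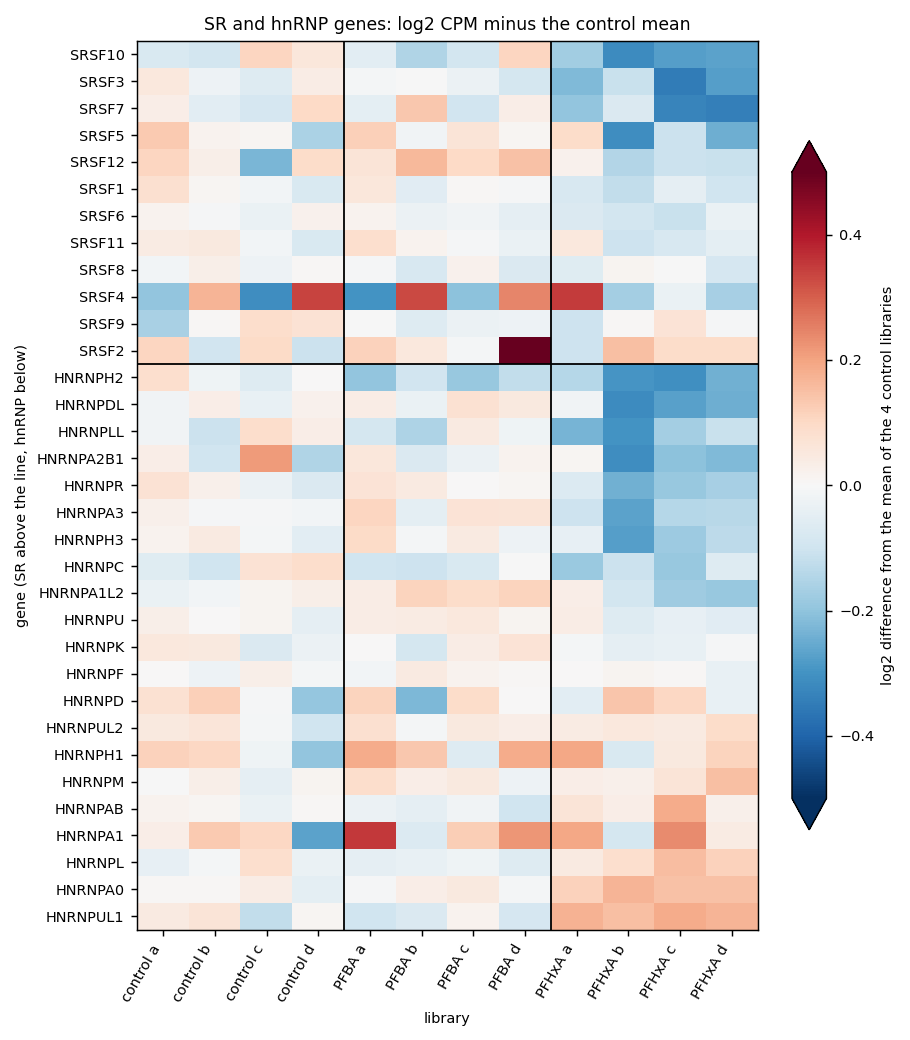
Heat map of log2 CPM minus the mean of the 4 control libraries for the 33 tested SR and hnRNP genes (vertical) in the 12 libraries (horizontal); blue is lower and red is higher, on a scale from −0.5 to 0.5, with SR genes above the line. The blue rows at the top of each family in the 4 PFHxA libraries include SRSF10, SRSF3, SRSF7 and HNRNPH2, and the red cell of SRSF2 is PFBA library d at 95.7 CPM.

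SRSF3 is the smallest SR protein and also links splicing to mRNA export. Its gene lies at chr6:36594353-36605600, plus strand (GRCh38, as for all gene positions given). Its counts were 238, 225, 219.6 and 235 CPM in the control libraries, 228, 229, 225 and 216 CPM in the PFBA libraries and 197, 212, 180.1 and 189.7 CPM in the PFHxA libraries. All PFHxA libraries lay below all control and PFBA libraries. The means were 229 ± 8.55 CPM in control, 224 ± 5.94 in PFBA and 195 ± 13.6 in PFHxA (SD, n = 4), and the difference from control passed the test (log2 fold −0.24, SE 0.050, edgeR adjusted p = 0.00742). SRSF7, its nearest relative, has a zinc knuckle beside the RNA recognition domain (chr2:38743599-38751494, minus strand). It stood at 98.3, 92.6, 90.7 and 103 CPM in the control libraries, 92.9, 105, 89.9 and 98.3 CPM in the PFBA libraries and 83.7, 91.3, 76.3 and 75.7 CPM in the PFHxA libraries. PFHxA library b, at 91.3 CPM, lay within the control range and the other 3 lay below it. The difference passed the test (log2 fold −0.23, SE 0.069, edgeR adjusted p = 0.0383).

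SRSF10 is a splicing repressor that acts when it is dephosphorylated, as after heat shock (chr1:23964804-23980927, minus strand). Its counts were 142, 140.2, 161 and 155 CPM in the control libraries, 144, 135, 140.1 and 161 CPM in the PFBA libraries and 133, 120.0, 123 and 124 CPM in the PFHxA libraries. Each PFHxA library lay below all 8 others, and the SR gene had the lowest fitted value of the family (log2 fold −0.26, SE 0.061, edgeR adjusted p = 0.0138). SRSF12, its closest relative, held 18.4 ± 1.89 CPM in control, 19.9 ± 0.624 in PFBA and 17.3 ± 0.898 in PFHxA (SD, n = 4), with no call (log2 fold −0.092, SE 0.077, edgeR adjusted p = 0.49).

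Of the abundant SR genes, SRSF1, SRSF6 and SRSF9 were not called. SRSF6, an activator of exons with a pair of RNA recognition domains, was among the steadiest members, at 218, 214, 210.0 and 218 CPM in the control libraries, 217, 210.4, 212 and 208 CPM in the PFBA libraries and 204, 202, 199 and 209.9 CPM in the PFHxA libraries. All PFHxA libraries lay below all control libraries by a small amount that did not pass the test (log2 fold −0.077, SE 0.033, edgeR adjusted p = 0.14). SRSF1 stood at 262, 250.4, 246 and 236 CPM in the control libraries, 259, 239, 249 and 248 CPM in the PFBA libraries and 235, 228, 241 and 232 CPM in the PFHxA libraries. Its groups overlapped (log2 fold −0.088, SE 0.040, edgeR adjusted p = 0.171). SRSF9, a relative of SRSF1, stood at 195, 219, 232 and 230.0 CPM in the control libraries, 219, 209, 215 and 215 CPM in the PFBA libraries and 203, 219, 229.5 and 218 CPM in the PFHxA libraries. Its groups overlapped too (log2 fold −0.011, SE 0.054, edgeR adjusted p = 0.926). SRSF9 shares bases with GATC on the opposite strand. Whether the counting used strand is not known from the labels, so reads of the pair may be mixed. SRSF5 and SRSF11 had fitted log2 folds of −0.14 (95% interval −0.31 to 0.038) and −0.044 (95% interval −0.14 to 0.055). SRSF8, a relative of SRSF2, had −0.032 (95% interval −0.12 to 0.058).

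Among hnRNPs of the A and B type, which carry a pair of RNA recognition domains and a glycine-rich tail, HNRNPA0 moved up and HNRNPA3 down. HNRNPA0 has no intron, and its protein binds AU-rich elements of cytokine mRNAs (chr5:137745651-137754376, minus strand). It stood at 323, 323, 329.8 and 311 CPM in the control libraries, 320.0, 329, 333 and 319 CPM in the PFBA libraries and 348, 362, 356 and 356 CPM in the PFHxA libraries. Every PFHxA library lay above the other 8 (log2 fold 0.14, SE 0.033, edgeR adjusted p = 0.0116). After the GC and length trend was removed the value was 0.20 (adjusted p = 0.0139), larger than as counted. HNRNPA3 is a relative of HNRNPA2B1 (chr2:177212563-177223958, plus strand). It stood at 261, 255, 255 and 253 CPM in the control libraries, 276, 248, 269 and 268 CPM in the PFBA libraries and 238, 213, 232 and 233 CPM in the PFHxA libraries. Its PFHxA libraries lay below all others (log2 fold −0.16, SE 0.044, edgeR adjusted p = 0.0254), and with the trend removed the value was 0.0027 (adjusted p = 0.98).

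HNRNPA2B1 reads RNA sorting signals and held 718 ± 82.9 CPM in control, 712 ± 27.3 in PFBA and 632 ± 61.03 in PFHxA (SD, n = 4). Its log2 fold against control was −0.18 (95% interval −0.36 to −0.012), with no call. It overlaps CBX3 on the opposite strand. HNRNPAB, which binds single-stranded RNA and DNA, stood at 124, 123, 119 and 123 CPM in control and 128, 125, 139 and 124 in PFHxA. Its PFHxA libraries lay above all controls, without a call (log2 fold 0.078, SE 0.042, edgeR adjusted p = 0.24). HNRNPAB overlaps PHYKPL on the opposite strand. HNRNPC binds runs of U and restrains the use of Alu-derived exons. It held 415 ± 26.98 CPM in control, 395 ± 12.8 in PFBA and 377 ± 16.3 in PFHxA (SD, n = 4) and was not called (log2 fold −0.14, SE 0.050, edgeR adjusted p = 0.0802). HNRNPD, also called AUF1, speeds decay of AU-rich mRNA. It held 201 ± 18.8 CPM in control, 201 ± 20.5 in PFBA and 206 ± 13.9 in PFHxA (SD, n = 4), with a log2 fold of 0.035 (95% interval −0.14 to 0.21) and no call.

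HNRNPDL, the close relative of HNRNPD, lies 48060 bases from it on chromosome 4 (chr4:82422564-82430408, minus strand) and encodes another binder of AU-rich RNA. Its counts were 316, 327, 312 and 325 CPM in the control libraries, 328, 312, 337 and 331 CPM in the PFBA libraries and 316, 257, 265 and 269.9 CPM in the PFHxA libraries. PFHxA library a, at 316 CPM, lay among the controls and the other 3 lay below all of them (log2 fold −0.21, SE 0.057, edgeR adjusted p = 0.0265). With the trend removed the value was −0.18 (adjusted p = 0.105). HNRNPDL was called and HNRNPD was not; the difference between them was not tested.

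The H and F group binds runs of G. HNRNPH2, on the X chromosome (chrX:101408295-101414133, plus strand), had the per-library counts given above for control and PFBA, and 139, 125, 124 and 130.3 CPM in PFHxA. All PFHxA libraries lay below all control libraries, and PFHxA library a lay within the PFBA range (log2 fold −0.24, SE 0.047, edgeR adjusted p = 0.00509). Part of its length is shared with the read-through row RPL36A-HNRNPH2 on the same strand, which held 3288 reads against 32905 for HNRNPH2 over the 12 libraries. Its close paralog HNRNPH1 stood at 179.9, 178, 163 and 145 CPM in the control libraries, 189, 182, 159 and 189 CPM in the PFBA libraries and 189.6, 157, 172 and 179 CPM in the PFHxA libraries. Its groups overlapped (log2 fold 0.066, SE 0.079, edgeR adjusted p = 0.647). HNRNPF, the third member of the group, stood at 323, 317, 329 and 319.6 CPM in the control libraries, 319, 332, 325 and 323 CPM in the PFBA libraries and 322, 325, 323 and 313 CPM in the PFHxA libraries. Its groups overlapped as well (log2 fold −0.0043, SE 0.031, edgeR adjusted p = 0.949). HNRNPH3, a shorter relative, stood at 174, 177, 171 and 166 CPM in the control libraries, 184, 171, 178 and 169 CPM in the PFBA libraries and 167, 142, 151 and 157 CPM in the PFHxA libraries. PFHxA library a lay within the control range, and edgeR did not call it (log2 fold −0.16, SE 0.050, edgeR adjusted p = 0.0505). DESeq2 (adjusted p = 0.0391), limma-voom (0.0497) and edgeR with the stricter filter (0.0419) called it lower. Apart from the fits with 1 library left out, 4 of 11 alternative fits called HNRNPH3. With the GC and length trend removed its value was −0.069 (edgeR adjusted p = 0.495). HNRNPH3 overlaps RUFY2 on the opposite strand, which held 4587 reads against 39188 for HNRNPH3 over the 12 libraries.

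Of the remaining hnRNPs called lower, HNRNPR is a relative of SYNCRIP that carries mRNA along axons (chr1:23303771-23344336, minus strand). It stood at 342, 332, 319 and 309.9 CPM in the control libraries, 341, 335, 326 and 328 CPM in the PFBA libraries and 310.5, 276, 286 and 289.9 CPM in the PFHxA libraries. PFHxA library a, at 310.5 CPM, just exceeded the lowest control library (log2 fold −0.17, SE 0.044, edgeR adjusted p = 0.0239). HNRNPLL directs the switch of CD45 exons in lymphocytes (chr2:38561978-38603586, minus strand). It stood at 59.5, 55.9, 63.98 and 61.6 CPM in the control libraries, 56.7, 54.1, 62.03 and 59.3 CPM in the PFBA libraries and 51.2, 48.9, 53.5 and 55.7 CPM in the PFHxA libraries. The highest PFHxA library, at 55.7 CPM, lay just below the lowest control library at 55.9 (log2 fold −0.20, SE 0.059, edgeR adjusted p = 0.0349). HNRNPL, the paralog of HNRNPLL that binds CA repeats, stood at 316, 324, 345 and 318 CPM in the control libraries, 316, 317, 321 and 311 CPM in the PFBA libraries and 336, 345, 363 and 353 CPM in the PFHxA libraries. PFHxA and control overlapped, with no call (log2 fold 0.10, SE 0.038, edgeR adjusted p = 0.0977).

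HNRNPUL1 is a relative of HNRNPU with a part in the response to DNA double-strand breaks (chr19:41262496-41307598, plus strand). It stood at 426, 431, 379 and 416 CPM in the control libraries, 385, 392, 417 and 389 CPM in the PFBA libraries and 466, 458, 469 and 464 CPM in the PFHxA libraries. Every PFHxA library lay above the other 8 (log2 fold 0.17, SE 0.044, edgeR adjusted p = 0.0214), and with the trend removed the value was 0.079 (adjusted p = 0.413). At 56.3% it has the highest GC content of the tested members. HNRNPUL1 overlaps TGFB1 on the opposite strand, which held 3259 reads against 99072 for HNRNPUL1 over the 12 libraries. HNRNPU itself, a scaffold protein that joins RNA to chromatin, stood at 909, 891, 897 and 861 CPM in the control libraries, 912, 915, 922 and 897 CPM in the PFBA libraries and 911, 851, 864 and 854 CPM in the PFHxA libraries. It was not called (log2 fold −0.032, SE 0.035, edgeR adjusted p = 0.612). HNRNPUL2 held 281 ± 14.2 CPM in control, 288 ± 7.54 in PFBA and 292 ± 4.87 in PFHxA (SD, n = 4) and was not called either (log2 fold 0.056, SE 0.040, edgeR adjusted p = 0.406). HNRNPK stood at 789, 786, 722 and 745 CPM in the control libraries, 762, 715, 781 and 798 CPM in the PFBA libraries and 755, 737, 742 and 757 CPM in the PFHxA libraries. It was not called (log2 fold −0.025, SE 0.042, edgeR adjusted p = 0.766). HNRNPM held 218 ± 4.78 CPM in control, 223 ± 7.29 in PFBA and 228 ± 9.02 in PFHxA (SD, n = 4), with no call (0.069 (95% interval −0.016 to 0.15)), and overlaps ELAVL1 on the opposite strand.

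**Figure D2:**
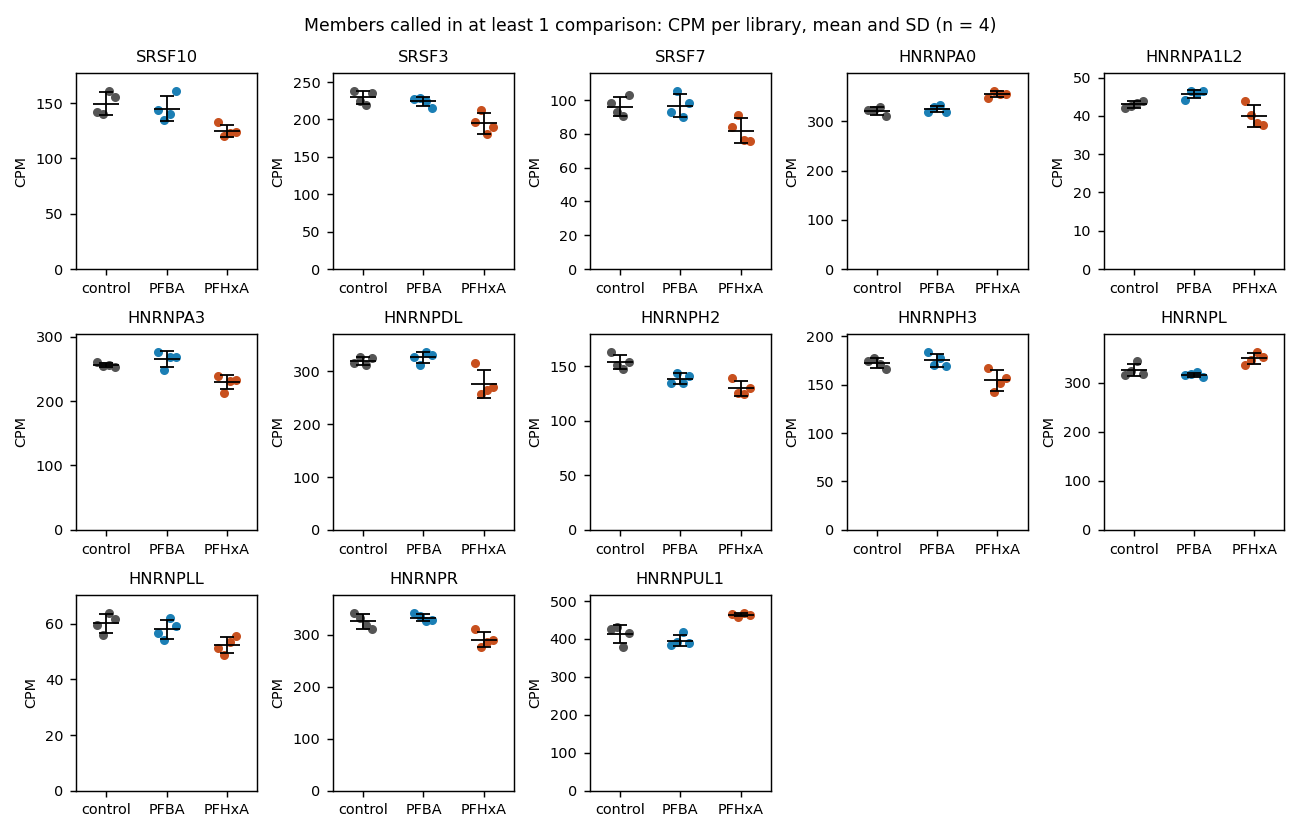
CPM (vertical, from 0) in each library of control, PFBA and PFHxA for the 13 members called in at least 1 comparison; points are libraries and the black marks are the mean and SD of 4. PFHxA points lie above the other 8 for HNRNPA0 and HNRNPUL1 and below them for SRSF3, SRSF10 and HNRNPA3.

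Against control, 5 calls held, as counted, when any 1 of the 12 libraries was left out: HNRNPA0, HNRNPH2, HNRNPUL1, SRSF3 and SRSF10. With the GC and length trend removed and all 12 libraries kept, HNRNPA0 alone of them was called. The other 5 each lost their call in some of the fits with 1 library left out. HNRNPA3 lost it without control a, PFHxA b or PFHxA c (adjusted p = 0.0623, 0.0925 and 0.058), HNRNPDL without control b, control d, PFHxA b, PFHxA c or PFHxA d (0.0583 to 0.0876), HNRNPR without control a, control b, PFHxA b, PFHxA c or PFHxA d (0.0563 to 0.0887), HNRNPLL without any of control a, c and d or PFHxA a, b and c (0.062 to 0.119), and SRSF7 without any of control a, b and d or PFHxA a, c and d (0.0503 to 0.121). Their fitted values stayed below 0 in each of these fits. In a fit of the 8 PFHxA and control libraries alone, SRSF7, HNRNPDL, HNRNPLL and HNRNPR also missed the threshold (adjusted p = 0.0556, 0.0574, 0.0511 and 0.0557).

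The acids were then compared directly, at the same dose and time. The PFHxA libraries are the same as in the comparison with control, so the calls in both comparisons rest on shared libraries. PFHxA differed from PFBA in 11 of 33 members, where 10.9% of all tested genes were called. Of the 8 lower in PFHxA (7.07% of all genes), SRSF3, SRSF7, SRSF10, HNRNPA3, HNRNPDL and HNRNPR were also called against control, and HNRNPA1L2 and HNRNPH3 were not. The 3 higher in PFHxA (3.84% of all genes) were HNRNPA0, HNRNPL and HNRNPUL1. The median log2 fold over the members was −0.067, against 0.0055 over all tested genes, and −0.13 over the SR genes. DESeq2 called 12 members (14.5% of all genes), among them HNRNPAB (adjusted p = 0.0415), and limma-voom called 11 (11.2%).

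The lowest adjusted p belonged to HNRNPUL1 (log2 fold 0.23, SE 0.044, edgeR adjusted p = 0.00582), followed by HNRNPA3 (log2 fold −0.21, SE 0.044, edgeR adjusted p = 0.0089) and HNRNPR (log2 fold −0.20, SE 0.044, edgeR adjusted p = 0.0133). In each of these the 4 PFHxA and the 4 PFBA libraries did not overlap. The share of all tested genes separated in this way is not given for this comparison either. HNRNPDL (log2 fold −0.24, SE 0.057, edgeR adjusted p = 0.0164) and SRSF7 (log2 fold −0.24, SE 0.069, edgeR adjusted p = 0.0407) passed with 1 PFHxA library inside the PFBA range. SRSF3 (log2 fold −0.20, SE 0.049, edgeR adjusted p = 0.0188), SRSF10 (log2 fold −0.21, SE 0.061, edgeR adjusted p = 0.0417) and HNRNPA0 (log2 fold 0.13, SE 0.033, edgeR adjusted p = 0.0243) were separated in all libraries.

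HNRNPL was higher with PFHxA, at 316, 317, 321 and 311 CPM in PFBA and 336, 345, 363 and 353 in PFHxA (log2 fold 0.14, SE 0.038, edgeR adjusted p = 0.0292). HNRNPH3 was lower, at 184, 171, 178 and 169 and 167, 142, 151 and 157 CPM (log2 fold −0.18, SE 0.050, edgeR adjusted p = 0.0313). HNRNPA1L2 was lower too, at 44.1, 46.5, 45.9 and 46.4 and 43.98, 40.4, 38.05 and 37.7 CPM (log2 fold −0.19, SE 0.053, edgeR adjusted p = 0.0328), while its control libraries, at 42.1, 42.6, 43.4 and 43.96, lay below all PFBA libraries and overlapped those of PFHxA. HNRNPA1L2 is a copy of HNRNPA1 with near-identical sequence, so its reads may be shared with that gene. HNRNPH2 and HNRNPLL, both called against control, did not pass between the acids, with log2 folds of −0.094 (95% interval −0.20 to 0.0085) and −0.15 (95% interval −0.28 to −0.022); a miss does not show that the acids act alike on them.

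For the 22 members not called between the acids, 12 had 95% intervals within ± 0.2 and 17 within ± 0.3 on the log2 scale. HNRNPF, SRSF8 and SRSF6 had narrow ones, at −0.018 (95% interval −0.085 to 0.050), 0.0013 (95% interval −0.089 to 0.091) and −0.058 (95% interval −0.13 to 0.013), while SRSF4 and SRSF2 had the widest, at −0.032 (95% interval −0.46 to 0.40) and −0.22 (95% interval −0.58 to 0.14). With the GC and length trend removed 1 of 33 members was called (0.882% of all genes), again HNRNPA0, at 0.25 (adjusted p = 0.00956), and the members' median was 0.034. The median of the SR genes was then 0.025. Left out one at a time, libraries mattered more here: 3 members stayed called without PFHxA c or without PFHxA d, 4 without PFHxA b, 5 without PFBA a, and 6 without PFBA c or PFBA d. HNRNPA3 and HNRNPUL1 kept their call in all 12 such fits, and HNRNPR lost it only without PFHxA b (adjusted p = 0.0513). The remaining 8 each lost theirs in 3 to 8 of the fits: HNRNPA0 without PFBA a, PFBA d, PFHxA b, PFHxA c or PFHxA d (0.0589 to 0.0747), HNRNPDL without PFBA c, PFHxA b, PFHxA c or PFHxA d (0.0509 to 0.0557), HNRNPH3 without PFBA a, PFBA c, PFHxA b, PFHxA c or PFHxA d (0.06 to 0.099), HNRNPL without PFBA a, PFBA c, PFBA d, PFHxA b, PFHxA c or PFHxA d (0.0584 to 0.0867), SRSF3 without PFBA a, PFHxA c or PFHxA d (0.0545 to 0.0679), SRSF10 without PFBA a, PFBA c, PFBA d, PFHxA b, PFHxA c or PFHxA d (0.0644 to 0.121), HNRNPA1L2 without PFBA b, PFBA c, PFBA d, PFHxA b, PFHxA c or PFHxA d (0.0614 to 0.0982) and SRSF7 without PFBA a, PFBA b, PFBA d, control a, control b, PFHxA a, PFHxA c or PFHxA d (0.0519 to 0.12), each with the range of adjusted p over these fits. Without the filter on low counts HNRNPA0, HNRNPL and HNRNPA1L2 also missed the threshold (adjusted p = 0.0803, 0.0564 and 0.0661). In a fit of the 8 PFHxA and PFBA libraries alone, HNRNPA1L2 and SRSF7 missed it (adjusted p = 0.0566 and 0.0571).

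**Figure D3:**
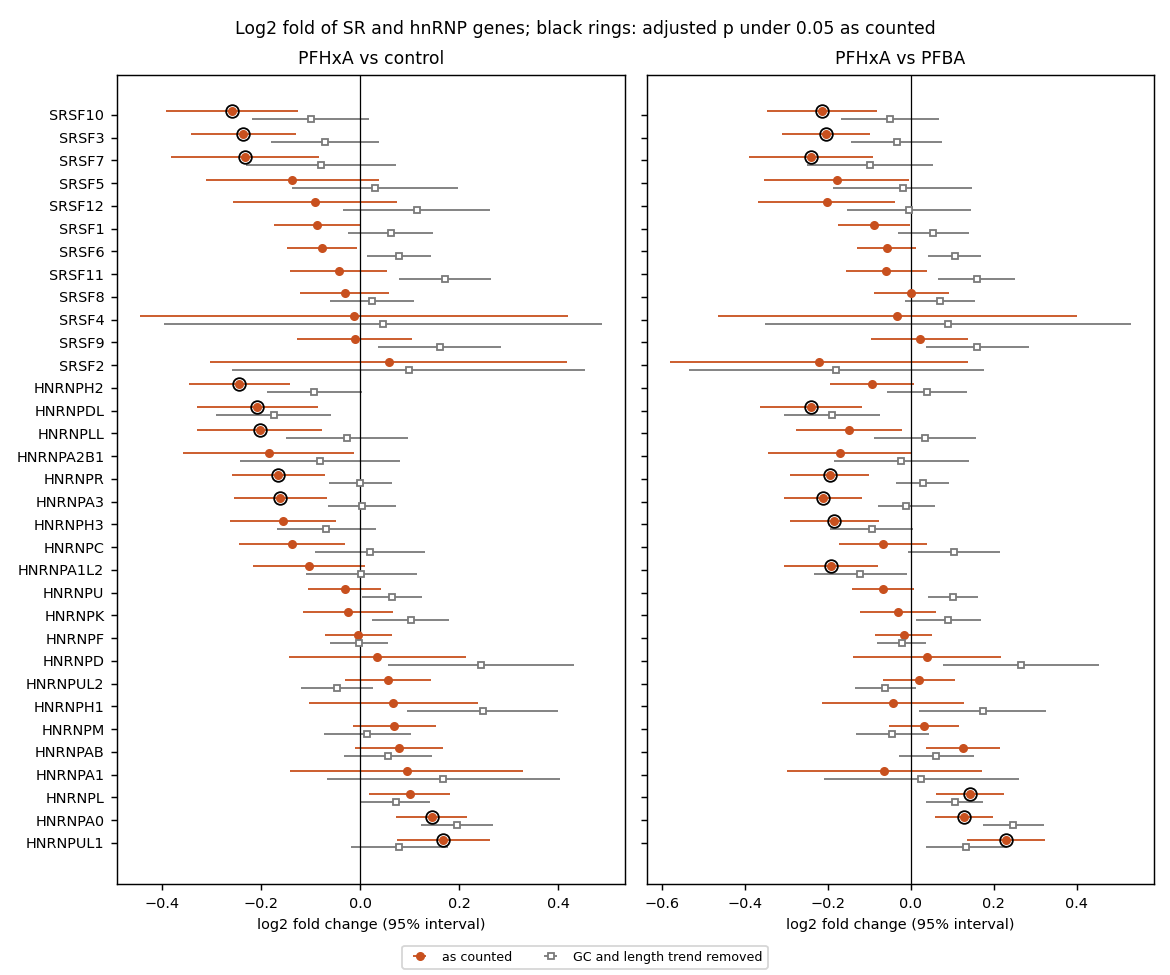
Log2 fold change (horizontal) with its 95% interval for each tested member (vertical) in PFHxA against control (left) and against PFBA (right); filled circles are the counts as deposited, open squares the same after removal of the GC and length trend, and black rings mark an adjusted p under 0.05 as counted. Most SR genes lie left of 0 as counted and move right once the trend is removed, and HNRNPA0 stays right of 0 in both.

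Over the 33 members, the log2 fold of PFHxA against control rose with GC content, with Spearman's rho of 0.42, against 0.46 over the 16452 genes; against PFBA the values were 0.34 and 0.54. These are descriptions across genes of the same libraries. HNRNPD and HNRNPH1, at 36.1% and 36.3% GC, lay above the other members of low GC, with trend-removed values of 0.24 (adjusted p = 0.164) and 0.25 (adjusted p = 0.0845), which did not pass. HNRNPA0, at 41.1% GC, was higher where the median gene of 40% to 45% GC had a log2 fold of −0.092.

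**Figure D4:**
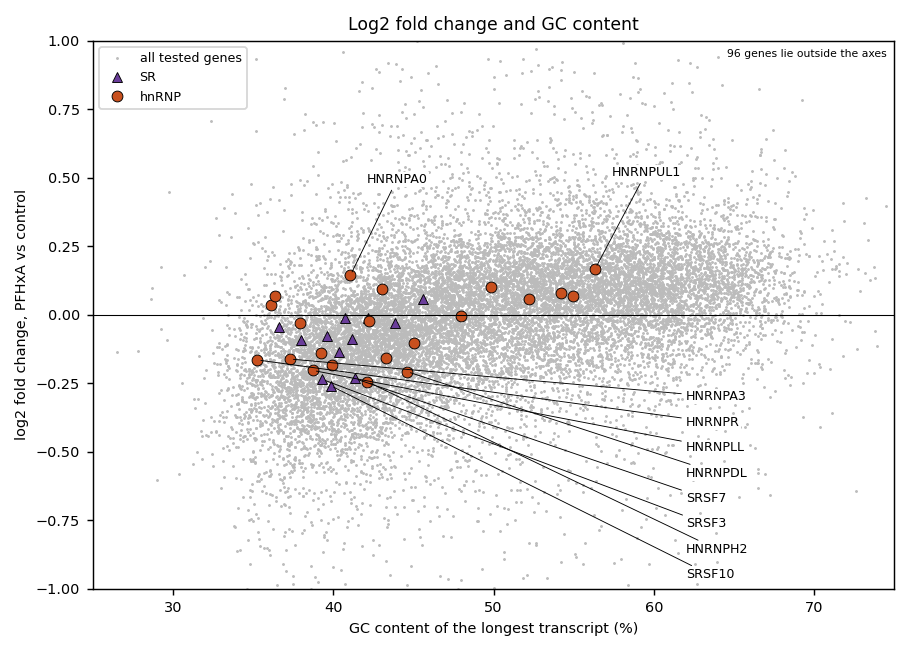
Log2 fold change of PFHxA against control (vertical) by GC content of the longest transcript (horizontal, %); grey points are all tested genes within the axes, triangles SR genes and circles hnRNP genes, with the 10 called members named. The grey cloud rises from left to right, and HNRNPA0 at 41.1% GC lies above 0 while the 8 members called lower lie between 35.3% and 44.6%.

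Several hnRNP genes have processed pseudogenes in the table that hold many of the reads. HNRNPA1 held 120011 reads over the 12 libraries, and the 75 rows named as its pseudogenes held 393033, or 76.6% of the sum; HNRNPA1P48 held 185220 and HNRNPA1P7 held 184697. The HNRNPA1 row stood at 491, 525, 514 and 399 CPM in the control libraries, 613, 458, 522 and 559 CPM in the PFBA libraries and 549, 452, 565 and 493 CPM in the PFHxA libraries. The sum of gene and pseudogene rows was 2206 ± 149.9 CPM in control, 2260.3 ± 121 in PFBA and 2099 ± 93.9 in PFHxA. Neither the row alone (log2 fold 0.093, SE 0.11, edgeR adjusted p = 0.635) nor the sum (log2 fold −0.072, adjusted p = 0.453) was called against control. The coefficient of variation in control was 11.9% for the row and 6.80% for the sum, and the level of HNRNPA1 from its own row is uncertain. Per kilobase of the parent's longest transcript, the sum for HNRNPA1 in control was 535 ± 36.4 CPM and that for HNRNPK 282 ± 12.7, the reverse of the order of their own rows. How reads that match several rows were counted is not known, so a sum may hold reads counted more than once. The level of this and other sums, and that order, are uncertain too.

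Of the other parents, HNRNPA3 had 45.2% of its summed reads in 16 pseudogene rows, and summed it was still called lower against control (log2 fold −0.15, adjusted p = 0.0439). HNRNPC had 18.7% in 9 rows, and summed it passed (log2 fold −0.14, adjusted p = 0.0404), which the row alone did not. HNRNPK had 8.52% and HNRNPL 4.04% in such rows. SRSF3, HNRNPR and HNRNPU had 0.246%, 0.240% and 0.484%. Summing was chosen after these rows had been seen.

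The members also differed in how closely libraries of a group matched. The pooled SD of log2 CPM within groups was 0.024 for HNRNPF, 0.028 for SRSF6 and 0.029 for HNRNPA0, lower than in nearly all of the 8313 most abundant tested genes (percentiles 0.0842, 0.373 and 0.493). It was 0.29 for SRSF4 and 0.24 for SRSF2, at percentiles 93.4 and 90.8. SRSF4 has an unusually long arginine and serine tail. It stood at 67.4, 86.8, 62.3 and 97.7 CPM in the control libraries, 62.7, 97.2, 67.03 and 91.5 CPM in the PFBA libraries and 98.4, 68.6, 75.4 and 68.9 CPM in the PFHxA libraries. In it, 5 libraries from all 3 groups lay at 86.8 CPM or above and the other 7 at 75.4 or below. SRSF2, which regulates exon choice and transcription pausing, stood at 58.9, 51.1, 58.3 and 50.7 CPM in the control libraries, 59.2, 56.7, 54.2 and 95.7 CPM in the PFBA libraries and 50.8, 60.7, 58.2 and 58.2 CPM in the PFHxA libraries. PFBA library d lay apart from the other 11. SRSF2 overlaps MFSD11 on the opposite strand.

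**Figure D5:**
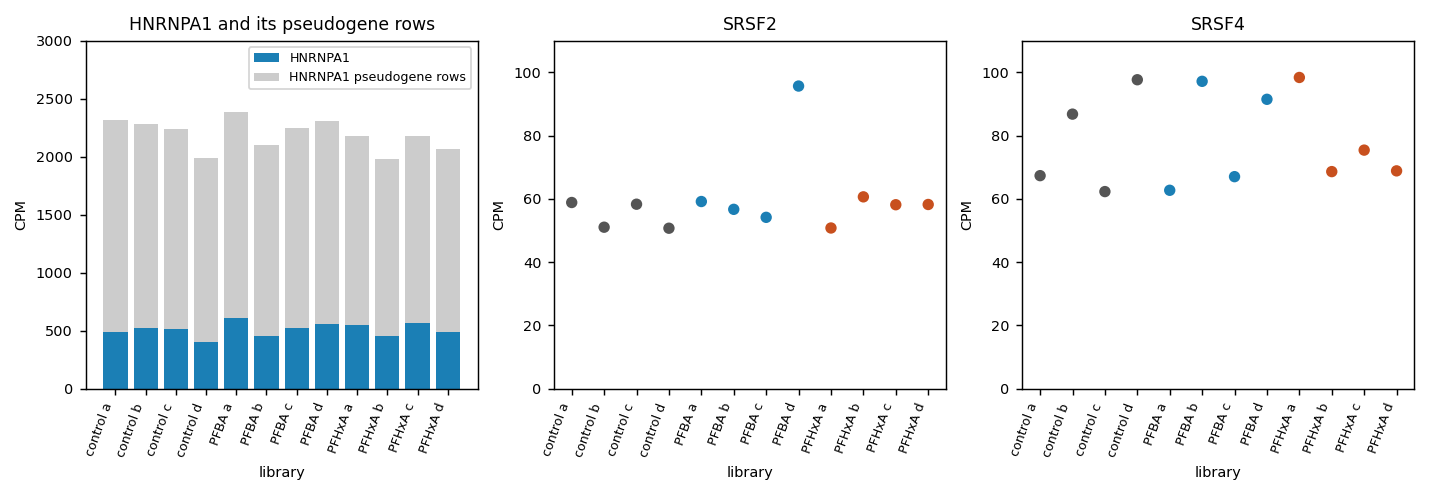
CPM (vertical) per library (horizontal): left, HNRNPA1 (blue) stacked under the sum of its pseudogene rows (grey); middle and right, SRSF2 and SRSF4, with control grey, PFBA blue and PFHxA orange. The grey part exceeds the blue in every library, SRSF2 is highest in PFBA library d, and SRSF4 falls into a higher and a lower set in each group.

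The annotation (GENCODE 29) lists a transcript subject to nonsense-mediated decay for 12 of 12 SR genes and 13 of 21 tested hnRNP genes, against 42.1% of 13461 tested protein-coding genes. Retained-intron transcripts are listed for 9 of 12 SR genes, 14 of 21 hnRNP genes and 56.4% of protein-coding genes. SRSF7 has 6 decay transcripts of 12, HNRNPDL 4 of 10 and SRSF3 2 of 8, while HNRNPA0 and HNRNPH2 have 1 transcript each, which codes for protein. Gene-level counts join all of these forms.

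Genes that act with SR and hnRNP proteins were read from 7 lists of textbook members (205 genes), drawn up with earlier results of these data known. In PFBA against control 0 genes of all 7 lists were called by edgeR. Among SR kinases and phosphatases, 5 of 11 tested genes were called in PFHxA against control, 4 lower and 1 higher. The median log2 fold of the 11 was 0.089 against control and −0.073 against PFBA. SRPK1, which phosphorylates SR proteins in the cytoplasm, was lower, at 182 ± 4.62 CPM in control and 163 ± 3.63 in PFHxA (log2 fold −0.15, adjusted p = 0.0135). PRPF4B, a kinase of the spliceosome, was lower as well, at 90.04 ± 5.52 CPM in control and 77.6 ± 5.04 in PFHxA (log2 fold −0.21, adjusted p = 0.0192). CLK1 and CLK4, which phosphorylate SR proteins in the nucleus, were the other 2 called lower. PPP1R10, a targeting subunit of a nuclear phosphatase, was higher, at 99.6 ± 11.01 CPM in control and 124 ± 8.36 in PFHxA (log2 fold 0.32, adjusted p = 0.0139). Against PFBA, PRPF4B, CLK1 and CLK4 were called lower. CLK1 stood at 54.3 ± 5.72 CPM in PFBA and 41.4 ± 5.37 in PFHxA (log2 fold −0.39, adjusted p = 0.0147). CLK4 stood at 15.5 ± 0.714 CPM in PFBA and 12.03 ± 1.25 in PFHxA (log2 fold −0.37, adjusted p = 0.021). SRPK1 was the one gene of this list called against control after the trend was removed (log2 fold −0.15, adjusted p = 0.0382), and 0 were called against PFBA.

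Of 32 SR-related and nuclear speckle genes, 10 were lower and 2 higher in PFHxA against control. PPIG, a cyclophilin with an SR domain, stood at 117 ± 6.50 CPM in control and 73.9 ± 15.1 in PFHxA (log2 fold −0.67, adjusted p = 0.00263) and was still called with the trend removed (log2 fold −0.48, adjusted p = 0.0203). DDX46, a helicase of branch site selection, stood at 89.1 ± 2.32 CPM in control and 73.7 ± 3.44 in PFHxA (log2 fold −0.27, adjusted p = 0.00258). TRA2A, which binds exonic enhancers, stood at 70.5 ± 4.26 CPM in control and 55.6 ± 5.67 in PFHxA (log2 fold −0.34, adjusted p = 0.00521). Against PFBA 10 were lower and 1 higher, among them SREK1 at 87.3 ± 1.49 CPM in PFBA and 73.96 ± 2.51 in PFHxA (log2 fold −0.24, adjusted p = 0.0045). Once the trend was removed, PPIG was the one gene of this list called against control and 0 were called against PFBA. Among 25 hnRNP-like genes with other symbols, 3 were lower and 1 higher against control. SYNCRIP, the relative of HNRNPR, stood at 372 ± 9.58 CPM in control and 318 ± 10.1 in PFHxA (log2 fold −0.23, adjusted p = 0.00206). PTBP2, a repressor of neuronal exons, stood at 23.7 ± 2.80 CPM in control and 18.2 ± 1.57 in PFHxA (log2 fold −0.38, adjusted p = 0.0108). KHSRP, a decay factor for AU-rich mRNA, was higher at 338 ± 8.77 CPM in control and 376 ± 15.05 in PFHxA (log2 fold 0.15, adjusted p = 0.0162). MATR3, a nuclear matrix protein, was lower against PFBA (log2 fold −0.29, adjusted p = 0.0195). None of these calls against control held with the trend removed (0 of 25), and EWSR1 alone was called, higher, against PFBA.

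The core spliceosome had the largest number of calls of the lists: of 65 tested genes, 23 were lower and 8 higher in PFHxA against control, with a median log2 fold of −0.067. Against PFBA 17 were lower and 6 higher, with a median of 0.043 over all 65. CDC5L, a core protein of the complex that activates the spliceosome, stood at 110.2 ± 5.08 CPM in control and 84.6 ± 3.39 in PFHxA (log2 fold −0.38, adjusted p = 0.00113). SNRPD3, a protein of the Sm ring around spliceosomal RNAs, stood at 89.7 ± 3.86 CPM in control and 70.5 ± 4.38 in PFHxA (log2 fold −0.35, adjusted p = 0.00161). CWC22, which loads the exon junction complex, was lower against PFBA (log2 fold −0.63, adjusted p = 0.00211). With the trend removed 8 of the 65 were called lower against control, among them SF3A3, SF3B1, SNRPD3, SNRPE, CDC5L, CRNKL1 and CWC22, and 0 were called higher. Against PFBA 3 were then called lower and 1 higher. In the comparison with control SNRPD3 kept its value with the trend removed, at −0.35 (adjusted p = 0.0070).

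Among 33 other regulators of alternative splicing, 3 were higher and 2 lower against control. ZRANB2, a zinc finger protein that binds splice sites, was lower, at 155 ± 8.40 CPM in control and 125 ± 8.74 in PFHxA (log2 fold −0.31, adjusted p = 0.00399). ELAVL1, a stabiliser of AU-rich mRNA, was higher, at 136 ± 5.48 CPM in control and 152 ± 6.01 in PFHxA (log2 fold 0.16, adjusted p = 0.024). CELF1, which binds GU-rich RNA, was higher too, at 202 ± 18.7 CPM in control and 230.3 ± 2.18 in PFHxA (log2 fold 0.19, adjusted p = 0.0334). Against PFBA 3 were lower, ZRANB2, RBM17 (log2 fold −0.18, adjusted p = 0.0323) and MBNL2 (log2 fold −0.25, adjusted p = 0.0365). After removal of the trend 0 of the 33 were called in either comparison. In the list of nonsense-mediated decay and the exon junction complex, 3 of 18 were lower and 3 higher against control. UPF3B, which ties that complex to decay, stood at 21.9 ± 1.70 CPM in control and 14.7 ± 1.64 in PFHxA (log2 fold −0.57, adjusted p = 0.00206). With the trend removed its log2 fold was −0.42 (adjusted p = 0.0247). SMG9, part of the kinase complex that acts on UPF1, was higher (log2 fold 0.29, adjusted p = 0.00504), as was UPF1, the helicase of the pathway (log2 fold 0.23, adjusted p = 0.00849). UPF2 was lower against PFBA (log2 fold −0.50, adjusted p = 0.00878). UPF3B was the one gene of the 18 that was, with the trend removed, called against control, and 0 were called against PFBA.

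Of 15 carriers of SR proteins, hnRNPs and mRNA, 3 were lower and 0 higher against control. TNPO1, which imports HNRNPA1 and its relatives into the nucleus, stood at 378 ± 8.96 CPM in control and 326 ± 5.003 in PFHxA (log2 fold −0.21, adjusted p = 0.00253). THOC2, of the export complex TREX, stood at 110.1 ± 5.69 CPM in control and 83.2 ± 5.01 in PFHxA (log2 fold −0.40, adjusted p = 0.00177). THOC1, of the same complex, stood at 35.2 ± 1.78 CPM in control and 30.8 ± 1.56 in PFHxA (log2 fold −0.19, adjusted p = 0.047). Against PFBA 4 were lower and TNPO2 was higher (log2 fold 0.16, adjusted p = 0.0146). With the trend removed THOC2 was the one carrier still called against control (log2 fold −0.26, adjusted p = 0.0263), and 0 were called against PFBA. As counted, calls in these lists stand beside 14.9% of all genes called against control, 8.82% lower and 6.08% higher. Against PFBA the shares were 10.9%, 7.07% lower and 3.84% higher. With the trend removed, 2.62% of all genes were called against control and 0.882% against PFBA.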

How the data were processed

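Total RNA in 12 libraries from RPMI2650 cells was sequenced on an Illumina instrument, per the labels' protocols. The authors aligned reads to GRCh38 (hg38) with HISAT2 2.0.4, per the submitters' processing notes. Which program counted reads, and whether by strand, is not given in the sources used here. Per gene, the deposited table gives counts of reads, not normalized, per the file headers, and 12 columns of another unit, FPKM, which were not used. Column prefixes were read as control, PFBA and PFHxA. Columns carry letters a to d in place of the labels' replicate numbers, so they are replicates with no stated pairing.

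Counts were tested with edgeR 4.0.16 (R 4.3.3; TMM scaling, filterByExpr with a minimum count of 10, robust quasi-likelihood F test, group only, all 12 libraries in 1 fit, two-sided, Benjamini-Hochberg over 16554 genes, threshold 0.05). CPM values use the same scaling. GC content and length came from the longest GENCODE 29 transcript (GRCh38), which 50076 of 50868 rows had. The trend fit adds, per library, splines with 5 degrees of freedom on both as offsets. As alternatives, scaling was by RLE or upper quartiles, the filter was dropped or made stricter, the 8 libraries compared were fitted alone, DESeq2 1.42.0 and limma-voom (limma 3.58.1) were run, each library was left out, and, chosen after the data were seen, pseudogene rows were summed into the parent (132 rows) and the column letter was fitted as a replicate block. The edgeR fit with and without the trend, DESeq2 and limma-voom were tested on simulated data. Over 16941599 to 21879105 reads per library, tested members lay at 15.6 CPM or above.

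The members and the gene lists were chosen with earlier results of these data known. Named are members with an adjusted p under 0.05 in any comparison, the 3 SR and 3 hnRNP genes with the highest level in control (the rule asked for FPKM; CPM per kilobase of transcript took its place), their close paralogs, members whose near-identical copies make their count uncertain, and up to 3 called genes per list and comparison with the smallest adjusted p. SRSF2, SRSF4, SRSF6, HNRNPU and members given by a single value were named after their values were seen. The values of 1 gene of the lists are not reported here.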

Additional observations from a re-analysis of the deposited data

Results flagged for a closer look

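SRSF2 in PFBA library d stood at 95.7 CPM, while the other 3 PFBA libraries lay between 54.2 and 59.2 CPM and the control and PFHxA libraries between 50.7 and 60.7 CPM. On the scale of log2 CPM, its gap to the nearest PFBA library was 0.845 of the group's range, above Dixon's critical value for 4 samples. Of 99 groups of 4 checked (33 members in 3 groups) this was the 1 that passed, where chance flags about 1 in 20.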

How the results depend on the processing

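The letters a to d of the columns are tied to no label, and same-letter libraries did not deviate together (correlations of −0.090 to 0.062 over 12 pairs, and 0 libraries matched best with their own letter). With the letter as a replicate block, 12 members were called against control and 11 against PFBA, and 0 genes in PFBA against control; HNRNPC and HNRNPH3 gained a call against control (adjusted p = 0.0498 and 0.0434), and against PFBA HNRNPLL gained one (0.0380) and HNRNPA1L2 lost one (0.0585). With the block and the trend removed together, 1 member was called in each PFHxA comparison, with 342, 106 and, for PFBA against control, 0 of all genes, medians of 0.030 and 0.034, HNRNPA3 at 0.0023 (adjusted p = 0.982) and HNRNPR at 0.00043 (0.996) and, against PFBA, 0.029 (0.729). With the GC and length trend removed, members called in PFHxA against control went from 10 to 1 and against PFBA from 11 to 1, all genes called from 2466 to 433 and from 1806 to 146, and the members' median log2 fold reversed from −0.044 to 0.030 and from −0.067 to 0.034; HNRNPA3 against control turned to 0.0027 (adjusted p = 0.98), HNRNPR to 0.00018 (adjusted p = 0.999) and HNRNPR against PFBA to 0.029 (adjusted p = 0.74). In the fit of the 8 libraries compared, 6 members were called against control. Summing pseudogene rows moved the median against control to −0.072. Genes called in PFBA against control, 1 as reported, were 2 with no filter, 2 in the 8-library fit, 44 with DESeq2 and 0 with limma-voom; members called stayed at 0 in each. With each library left out in turn, members called ranged from 5 to 11 against control and from 3 to 11 against PFBA, all genes called from 1523 to 2396, from 1035 to 2187 and, for PFBA against control, from 0 to 4, and the members' median from −0.088 to −0.031 and from −0.092 to −0.053. Over single members and listed settings, 2146 of 2277 values kept their side of the threshold and 14 gained a call. A call was lost with the sign kept in 111 values and with the sign changed in 6. A further 120 values called in neither fit changed sign; with the trend removed 34 of 99 values changed sign, 3 of them called. The causes were not tested. The median SE over the 33 members was 0.050 against control, which limits what differences can be told from 0.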
